A study of Mus musculus with 6 samples.

Results

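The genes described here are 10 genes of megakaryocytes and platelets, measured by RNA sequencing in haematopoietic stem and progenitor cells from mouse bone marrow. They were chosen by name, though with earlier results of these data known, and all 10 were found among the 18491 genes of the count table. Stem and progenitor cells were isolated by flow cytometry 8 months after poly(I:C), a double-stranded RNA mimic given in 3 doses. The design text describes Robo1 deletion with Mx1-cre, a recombinase driven by an interferon-responsive promoter that is active in blood-forming cells and in other tissues. The 6 libraries form 2 groups of 3, described as WT (wild type) and KO (knockout). Other label fields disagree: they call the WT libraries scramble shRNA controls and the KO libraries ROBO1 knockdown, while under treatment KO replicates 1 to 3 carry ROBO1, ROBO2 and ROBO3 knockdown, one each. All 6 samples carry the poly(I:C) protocol, and whether WT mice carry Mx1-cre, and the strain, age and number of animals, are not given in the sources used here. If the libraries of a group did not come from separate animals, p-values measure only technical spread. Robo1 itself was not analysed here, so the genotype was not checked on its transcript.

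Megakaryocytes are the large marrow cells that shed platelets into the blood. Platelets attach to damaged vessel walls through a receptor complex called GPIb-IX-V, which binds von Willebrand factor, and to each other through integrin alphaIIb beta3, which binds fibrinogen. They carry alpha granules filled with chemokines and adhesive proteins. Part of this gene programme is already read in stem cells and early progenitors, where Itga2b (CD41) and Vwf mark cells with a bias towards the megakaryocyte lineage.

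Total counts ran from 42235077 to 58106099 reads per library. The 10 genes together took 11108 to 14586 reads in WT and 5017 to 7451 in KO. Between groups the make-up of the libraries differed so much that the scaling sets the sign of many changes. With TMM, a scaling meant to be robust to a few very abundant genes, the median log2 fold change of the 15474 genes tested was -0.09, and with total counts it was -1.22. Changes are therefore given under both scalings, and values are read against the median of their own scaling. Summed levels of granulocyte genes were higher in KO under both scalings, though their single genes were not all so. The sum of 12 neutrophil and monocyte genes ran from 85705 to 96050 TMM-scaled CPM (read counts scaled to a common library size) in WT and from 268497 to 284509 CPM in KO (129986 to 137925 and 183936 to 187787 CPM by total counts). Most of that sum came from Mpo and Elane, which encode enzymes of neutrophil granules. Of the 12 genes 7 were called higher and 1 lower with TMM, and 6 higher and 4 lower with total counts. The sum of 11 eosinophil, basophil and mast cell genes ran from 6106 to 7286 CPM and from 45309 to 51008 CPM (9261 to 10462 and 31040 to 33667 CPM by total counts), with 7 called higher and 0 lower with TMM, and 5 higher and 5 lower with total counts. Their part in the values below was not tested. Of 12 stem and progenitor markers 2 were called lower and 2 higher with TMM (14.4% and 17.2% of all genes), and 11 lower and 0 higher with total counts (70.7% and 4.23% of all genes). Cd34 stood at 106 ± 4.54 CPM in WT and 102 ± 0.483 CPM in KO with TMM (mean ± SD, n = 3 each), not a call, and its log2 fold change with total counts was -1.20, a call. In bulk RNA, fewer cells of a type and less RNA per cell cannot be told apart.

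With TMM scaling 2 of the 10 platelet genes fell in KO, Gp1bb and Gp5, and 1 rose, Pf4. A call is an adjusted p under 0.05 in edgeR's quasi-likelihood test. Of all genes tested, 14.4% were called lower and 17.2% higher. The groups did not overlap for 3 genes that were lower (Gp1ba, Gp1bb and Gp5) and 1 that was higher (Pf4), where 24.4% of all genes were lower without overlap and 22.2% higher. The median of the 10 log2 fold changes was -0.59 with TMM, and 7 of the 10 were below 0. With total counts 8 of the 10 were called lower and 0 higher, at a median of -1.72, where 70.7% of all genes were called lower and 4.23% higher. Without overlap, 8 were lower with total counts, against 76.1% of all genes, and 0 were higher, against 4.85%. DESeq2 called the same 3 genes as edgeR with TMM, in the same directions, where 11.9% of all genes were called lower and 15.6% higher. The authors' deposited table classes Gp1bb and Gp5 as down and the other 8 as stable, among them Pf4 at a log2 fold change of 0.36.

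**Figure D1:**
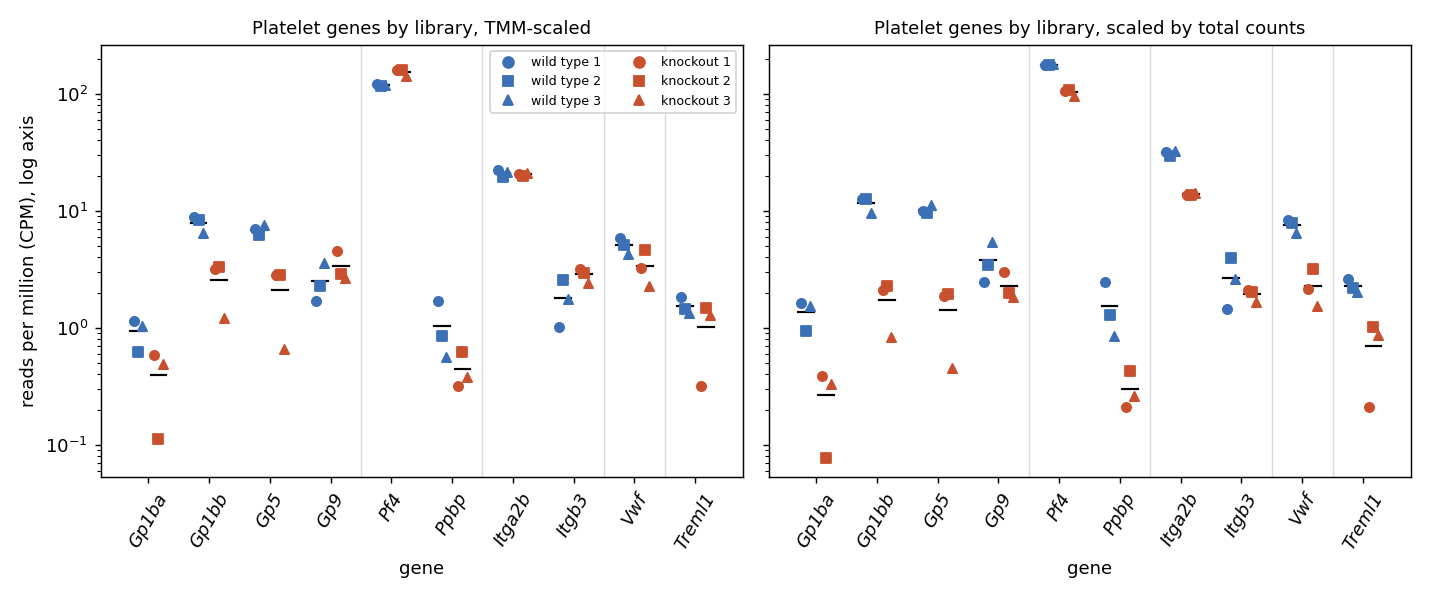
CPM of the 10 platelet genes in each library, on a log axis, scaled with TMM (left) and with total counts (right). Symbols mark the replicate number, blue WT and orange KO, and black bars the group mean (n = 3). Gp1ba, Gp1bb and Gp5 lie lower in all KO libraries in both panels, whereas Pf4 lies higher on the left and lower on the right.

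Of the 4 genes of the GPIb-IX-V complex, 2 were called lower with TMM and 2 did not pass. A difference in calls is not a test between genes. Gp1ba encodes the chain that holds the binding site for von Willebrand factor, Gp1bb the small chain bound to it by disulphide bonds, Gp9 a further small chain needed to bring the complex to the surface, and Gp5 a chain that thrombin can cleave. The bases before the start site of 3 of them are shown because the genes are read in the same lineage and not all were called here. Each is 250 bases long, 5′ to 3′ on the gene's strand, from RefSeq's GRCm38.p6 assembly, and ends at the base before the start site given there. Capitals mark matches to AGATAA or TGATAA, bound by GATA factors, and to AGGAAG or CGGAAG, bound by ETS factors, on either strand.
Gp1ba, chr11:70638872-70639121, plus strand: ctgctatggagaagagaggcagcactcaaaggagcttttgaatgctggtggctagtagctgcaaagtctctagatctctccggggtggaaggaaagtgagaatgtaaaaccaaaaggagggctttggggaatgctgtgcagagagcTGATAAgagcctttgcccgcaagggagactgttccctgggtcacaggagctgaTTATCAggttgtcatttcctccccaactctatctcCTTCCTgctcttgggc
Gp5, chr16:30310782-30311031, minus strand: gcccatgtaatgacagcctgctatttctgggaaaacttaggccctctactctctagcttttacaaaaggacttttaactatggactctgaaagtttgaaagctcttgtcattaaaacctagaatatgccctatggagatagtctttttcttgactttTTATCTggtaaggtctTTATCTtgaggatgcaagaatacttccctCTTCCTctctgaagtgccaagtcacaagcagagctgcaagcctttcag
Gp9, chr6:87777820-87778069, plus strand: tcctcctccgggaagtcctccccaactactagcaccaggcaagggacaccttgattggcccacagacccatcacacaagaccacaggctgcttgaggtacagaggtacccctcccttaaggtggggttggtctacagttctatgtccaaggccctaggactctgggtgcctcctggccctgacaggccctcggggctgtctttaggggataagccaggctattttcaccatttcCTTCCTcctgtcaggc

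The windows of Gp1ba and Gp5 each held 2 GATA matches and 1 ETS match, and that of Gp9 held 1 ETS match and 0 GATA matches. In Gp1ba the GATA matches began 104 and 51 bases before the start and the ETS match 16 bases before it, and in Gp9 the ETS match also began 16 bases before it. In Gp5 the GATA matches began 93 and 77 bases before the start and the ETS match 48 bases before it. Of 32851 such windows in the table, 16.6% held a GATA match, 39.2% an ETS match and 5.49% both. Windows were found for 8 of the 10 platelet genes, of which 2 held a GATA match and 6 an ETS match. The window of Gp1bb, not printed because it lies within the annotated span of Septin5, held 0 GATA matches and 1 ETS match, like that of Gp9. Of the genes called lower, Gp5 thus held GATA matches and Gp1bb did not, and Gp1ba, which held them, did not pass. A match is a description of the letters, not of binding.

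Gp5 fell. It lies on chromosome 16, 30307685 to 30310779, on the minus strand (GRCm38), and its 2 merged exons overlap no other annotated gene. Its counts were 446, 514 and 651 in WT and 107, 101 and 19 in KO, in replicate order. After TMM scaling these were 6.97, 6.28 and 7.52 CPM against 2.84, 2.85 and 0.662 CPM. All KO libraries lay below all WT libraries, and KO replicate 3 lay far below the other two. The log2 fold change was -1.68 (SE 0.40, edgeR adjusted p = 0.0109), a 3.22-fold lower level, and -2.82 (SE 0.40) with total counts. Without KO replicate 3 it was -1.28, still a call.

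Gp1bb also fell. It lies on chromosome 16, 18620317 to 18622403, on the minus strand. Counts were 568, 683 and 559 in WT and 121, 118 and 35 in KO, or 8.87, 8.34 and 6.46 CPM against 3.21, 3.33 and 1.22 CPM. Again the groups did not overlap and KO replicate 3 was the lowest, while WT replicate 3, the highest for Gp5, was the lowest of WT here. On the log2 scale the change was -1.59 (SE 0.32, edgeR adjusted p = 0.0045), a 3.01-fold lower level, and -2.72 (SE 0.32) with total counts. The gene shares 91.1% of its exon bases with Septin5, which codes for a septin and is read from the same strand, so reads from one can be credited to the other or discarded. Septin5 stood at 0.773 ± 0.363 CPM in WT and 1.73 ± 0.384 CPM in KO (mean ± SD, n = 3 each, edgeR adjusted p = 0.0583), which did not pass, and at a log2 fold change of 0.05 with total counts. With the reads of both genes summed, counts were 641, 717 and 625 against 183, 194 and 75. The log2 fold change of the sum was -0.99 (SE 0.25, edgeR adjusted p = 0.0151), a 1.99-fold lower level, and -2.13 with total counts.

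Both genes that fell lie on the chromosome of Robo1 (72308306 to 73046095) and before it in coordinate order. Of 468 genes tested on chromosome 16, 18.2% were called lower and 12.4% higher with TMM, against 14.4% and 17.2% of all genes tested. Whether position plays a part was not tested.

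Gp1ba and Gp9, the other members of the complex, did not pass with TMM. Gp1ba, on chromosome 11 from 70639122 to 70642036, had 73, 51 and 89 reads in WT and 22, 4 and 14 in KO. That is 1.14, 0.623 and 1.03 CPM against 0.584, 0.113 and 0.487 CPM, without overlap. Gp1ba did not pass, at -1.23 on the log2 scale (SE 0.60, edgeR adjusted p = 0.158), and 2 standard errors around it span -2.43 to -0.03. With total counts it was called lower, at -2.36. Gp9, on chromosome 6 from 87778072 to 87779768, had 109, 187 and 313 reads in WT and 170, 103 and 77 in KO. In CPM these were 1.70, 2.28 and 3.61 against 4.51, 2.91 and 2.68, so the groups overlapped. The log2 fold change of Gp9 was 0.41 (SE 0.32, edgeR adjusted p = 0.375), with 2 standard errors from -0.22 to 1.04, and -0.73 with total counts. Neither value of Gp9 was a call.

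Pf4 and Ppbp encode chemokines of the alpha granule, platelet factor 4 and pro-platelet basic protein. They are neighbours on chromosome 5, Ppbp from 90768518 to 90770063 and Pf4 from 90772435 to 90773383, both on the plus strand with 2371 bases between them. Pf4 had 7812, 9526 and 10408 reads in WT and 5990, 5611 and 4085 in KO. With TMM these were 122, 116 and 120 CPM against 159, 159 and 142 CPM, every KO library above every WT library. The fitted log2 fold change was 0.36 (SE 0.07, edgeR adjusted p = 0.00341). With total counts Pf4 stood at 175, 176 and 179 CPM against 105, 109 and 96.7 CPM, a log2 fold change of -0.77 and a call in the other direction. That value lies above the median of all genes under the same scaling.

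Ppbp was scarce, with 109, 70 and 49 reads in WT and 12, 22 and 11 in KO. In CPM these were 1.70, 0.855 and 0.566 against 0.319, 0.622 and 0.383, so that KO replicate 2 lay above WT replicate 3. Ppbp stood at -1.23 on the log2 scale (SE 0.54, edgeR adjusted p = 0.119), which did not pass, and -2.34 with total counts, a call. Without WT replicate 1, the highest library, the TMM value was -0.67.

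Itga2b and Itgb3 encode the alphaIIb and beta3 chains of the fibrinogen receptor. Itga2b, on chromosome 11 from 102453297 to 102470122, had the log2 fold change closest to 0 of the 10 genes with TMM. Its 1434, 1590 and 1873 reads in WT and 774, 709 and 604 in KO gave 22.4, 19.4 and 21.6 CPM against 20.6, 20.0 and 21.0 CPM. In edgeR the log2 fold change was -0.04 (SE 0.09, edgeR adjusted p = 0.767), with 2 standard errors from -0.22 to 0.14. With total counts it was -1.17, a call and close to the median of all genes. Itgb3, also on chromosome 11 (104608000 to 104670476), had 65, 212 and 153 reads in WT and 121, 104 and 70 in KO. These were 1.02, 2.59 and 1.77 CPM against 3.21, 2.94 and 2.44 CPM, with WT replicate 2 inside the KO range. Itgb3 stood at 0.67 on the log2 scale (SE 0.33, edgeR adjusted p = 0.161), and -0.47 with total counts. Neither value passed.

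Vwf, which encodes the adhesive ligand of GPIb, lies on chromosome 6 from 125546774 to 125686679. It had 375, 422 and 374 reads in WT and 122, 165 and 65 in KO, or 5.86, 5.15 and 4.32 CPM against 3.24, 4.66 and 2.26 CPM. KO replicate 2 lay inside the WT range, and KO replicate 3 was again the lowest. The log2 fold change was -0.58 (SE 0.26, edgeR adjusted p = 0.118). Without KO replicate 2 it was -0.88 and passed (edgeR adjusted p = 0.0289), and with total counts it was -1.71, a call. Endothelial cells also make Vwf. Of 9 endothelial genes tested 1 was called lower with TMM, Eng, which encodes endoglin (-0.39, and -1.52 with total counts), and 0 higher, against 14.4% and 17.2% of all genes. With total counts 7 were called lower and 0 higher, against 70.7% and 4.23%. The summed level of 10 endothelial genes, 1 of them not tested, ran from 105 to 110 CPM in WT and from 92.3 to 101 CPM in KO with TMM. With total counts it ran from 158 to 164 CPM and 62.8 to 68.6 CPM. Most of that sum came from Egfl7, at a mean of 65.2 CPM in WT and 61.8 CPM in KO with TMM. Kdr, a defining receptor of endothelial cells, stood at 0.214 ± 0.247 and 0.164 ± 0.160 CPM with TMM (n = 3 each), and was a call under neither scaling. It had 31, 13 and 0 reads in WT and 12, 0 and 5 in KO, too few to show equal levels. Egfl7 and Kdr were named after their values were seen.

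Treml1 encodes a receptor stored in alpha granules that reaches the surface on activation. It lies on chromosome 17 from 48359916 to 48367176, and had 117, 119 and 117 reads in WT and 12, 52 and 37 in KO. In CPM these were 1.83, 1.45 and 1.35 against 0.319, 1.47 and 1.29. KO replicate 2 lay inside the WT range, replicate 3 just below it and replicate 1 far below, whereas replicate 3 was the lowest for Gp1bb, Gp5 and Vwf. Treml1 did not pass, at -0.60 on the log2 scale (SE 0.49, edgeR adjusted p = 0.403), and it was -0.16 without KO replicate 1. With total counts it was -1.72, a call.

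**Figure D2:**
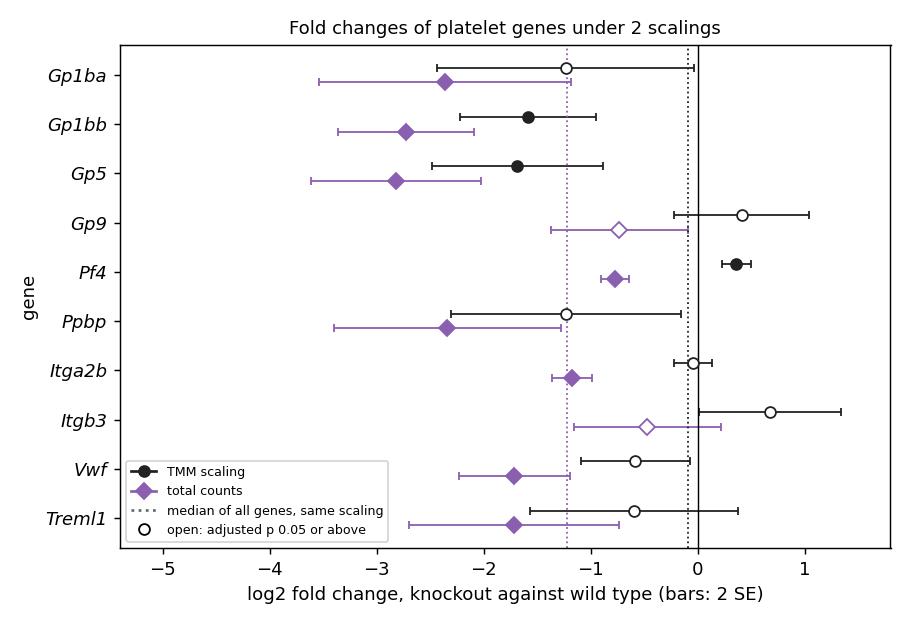
Log2 fold change, KO against WT, of each platelet gene with TMM scaling (black circles) and total counts (purple diamonds), with bars of 2 standard errors (n = 3 libraries per group). Filled symbols passed an edgeR adjusted p of 0.05, and dotted lines mark the median of all genes under each scaling. Gp1bb and Gp5 lie furthest below both medians, and Pf4 passes on opposite sides of 0.

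A ratio of 2 genes within a library does not depend on the scaling. Of 8 ratios examined, 3 had groups that did not overlap. Pf4 counts were 5.45, 5.99 and 5.56 times those of Itga2b in WT and 7.74, 7.91 and 6.76 times in KO, a difference of 0.40 in the mean log2 ratio. The share of Pf4 among the reads of all 10 genes was 70.3% to 71.4% in WT and 80.3% to 81.4% in KO. Ppbp counts per Pf4 count were lower in every KO library, by a mean log2 difference of -1.50. Gp9 counts were 1.49, 3.67 and 3.52 times those of Gp1ba in WT and 7.73, 25.8 and 5.50 times in KO, a log2 difference of 1.94. The value of 25.8 rests on 4 reads of Gp1ba in KO replicate 2, and without that library the difference was 1.28. In a two-sided exact permutation test of 3 libraries against 3 the smallest p possible is 0.1. These 3 ratios reached it (exact p = 0.1 each, 0.267 adjusted over the 8). By contrast, Gp1bb and Gp5 per Gp1ba differed by -0.23 and -0.48 on the log2 scale, less than the spread within KO (SD 1.82 and 2.11, exact permutation p = 0.8 and 0.7). Those spreads also rest on few Gp1ba reads. The 2 differences were -1.23 and -1.58 without KO replicate 2, and 0.55 and 0.53 without KO replicate 3. The ratios of Itgb3, Vwf and Treml1 to Itga2b differed by 0.81, -0.60 and -0.82, with overlapping groups (exact permutation p = 0.2 each).

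**Figure D3:**
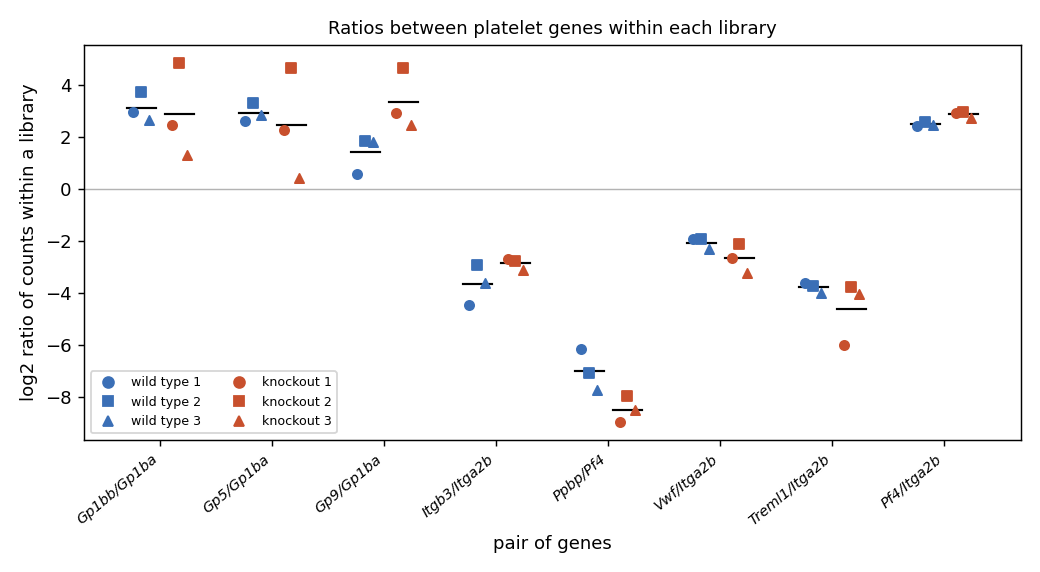
Log2 ratio of the raw counts of 2 genes within each library, for 8 pairs, with symbols for replicate numbers and black bars for group means (n = 3 per group). Gp9 per Gp1ba and Pf4 per Itga2b lie higher in all KO libraries, Ppbp per Pf4 lies lower, and the other 5 pairs overlap.

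Levels of different genes were compared per length, with the deposited FPKM values. Pf4 stood far above the rest, at 252 ± 5.56 FPKM in WT and 147 ± 8.83 FPKM in KO (mean ± SD, n = 3 each), rank 417 and rank 553 among the 18491 genes. In WT Gp1bb (8.37 ± 1.28 FPKM) and Itga2b (8.28 ± 0.242) came next with overlapping values, and Gp5 (3.88 ± 0.353) and Gp9 (3.56 ± 1.45) followed, also overlapping. Below them and without overlap came Treml1 (1.53 ± 0.193), which overlapped Ppbp (1.17 ± 0.614), as Ppbp did Vwf (0.970 ± 0.336). Gp1ba (0.429 ± 0.122) and Itgb3 (0.386 ± 0.182) overlapped each other and lay below Vwf without overlap. In KO the order after Pf4 was Itga2b (3.49 ± 0.187 FPKM), Gp9 (2.14 ± 0.597) and Gp1bb (1.31 ± 0.615), each pair of neighbours without overlap. From Gp1bb down, Gp5 (0.535 ± 0.322), Treml1 (0.463 ± 0.282), Itgb3 (0.277 ± 0.0345), Ppbp (0.154 to 0.322) and Vwf (0.215 ± 0.0773) followed, each overlapping the one before it, and Gp1ba was last at 0.0786 ± 0.0484, without overlap with Vwf. Gp1bb thus stood above Gp9 in WT and below it in KO. The place of Gp1bb is uncertain in both groups, because 91.1% of its exon bases are shared with Septin5. The ratio of total-count CPM to FPKM, which reflects the gene length the authors used, varied between libraries by up to 1.84-fold for Vwf and at most 1.15-fold for the other 9 genes, so the place of Vwf is uncertain.

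Over the 6 libraries the genes whose log2 CPM followed Itga2b most closely were Otub1, Pgghg, Enkd1 and Ksr1, with Pearson's r of 0.96, 0.95, 0.95 and 0.95. For Gp9 they were Laptm4a, Atp6v0d1, Lpar6 and Zfp707, with r of 0.98, 0.96, 0.96 and 0.96. Among 9798 genes compared, 17 reached an r of 0.9 with Itga2b and 22 with Gp9. None of these 8 is a gene of the lists used here, and with 6 libraries such values describe these libraries only.

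With TMM, a wider set of megakaryocyte and platelet genes was called in both directions, in shares close to those of all genes. Of 104 such genes tested, beyond the 10, 16 fell and 21 rose with TMM (14.4% and 17.2% of all genes) and 67 did not pass, at a median log2 fold change of 0.00. With total counts 89 of the 104 were called lower, a larger share than that of all genes, and 4 higher (70.7% and 4.23% of all genes). Their median was then -1.14, against -1.22 for all genes. The groups by role that follow are small, and their counts are to be read against these shares. The 16 lower calls numbered 10 without WT replicate 2 and 10 without WT replicate 3, as the lower calls over all genes fell from 2229 to 1356 and 1419. The 4 genes called higher under both scalings were Srgn, which encodes the granule proteoglycan serglycin, the alpha-tubulin gene Tuba4a, the profilin gene Pfn1 and the GTPase gene Rac2. Granulocytes also express Srgn, Pfn1 and Rac2.

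Of 9 genes of JAK-STAT signalling and its regulators, which relay the signals of blood cytokines, 1 fell and 0 rose with TMM (median -0.12; 14.4% and 17.2% of all genes), and 8 were called lower and 0 higher with total counts. Stat5b, a transcription factor activated by cytokine receptors, was that gene and fell by 0.79 (SE 0.18; -1.92 with total counts). The kinase genes Jak2, at -0.96 (SE 0.38), Tyk2, at -0.19 (SE 0.11), and Lyn, at 0.20 (SE 0.13), did not pass with TMM, and all 3 were called lower with total counts (-2.10, -1.32 and -0.93).

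Of 15 transcription factors of the lineage 3 rose and 2 fell with TMM (median 0.08; 17.2% and 14.4% of all genes), and 14 were called lower and 0 higher with total counts. Lyl1 (log2 0.83, SE 0.08) and Mrtfa (0.66, SE 0.18) rose with TMM but were called lower with total counts (-0.31 and -0.47). Srf, the partner of Mrtfa at actin genes, rose by 1.73 (SE 0.42), and stood at 0.59 with total counts, not a call. Etv6 fell by 0.45 (SE 0.12; -1.58 with total counts). Gata1, the ETS factor gene Fli1 and the bZIP factor gene Nfe2, named after their values were seen, did not pass with TMM. Gata1 stood at 22.2 ± 1.06 and 22.2 ± 4.26 CPM, Fli1 at 14.8 ± 0.720 and 15.1 ± 0.565 CPM, and Nfe2, which drives platelet release, at 132 ± 8.23 and 139 ± 2.66 CPM (WT and KO, n = 3 each). With total counts these 3 were called lower, at -1.14, -1.10 and -1.06, near the median of all genes.

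Among 23 other platelet receptors and surface proteins 4 fell and 2 rose with TMM (median -0.06; 14.4% and 17.2% of all genes), and 17 were called lower and 0 higher with total counts. The 23, and so the wider set, include Trem3, which is not a known platelet gene. Trem3 stood at 0.15 with TMM, not a call, and at -0.98 with total counts, a call. Cd226, an adhesion receptor of platelets and lymphocytes, had 22, 39 and 40 reads in WT and 0 in each KO library. Set against 3 counts over the KO group, it was at least 14.7-fold lower with TMM and at least 32.4-fold lower with total counts, bounds that cover counting error only. Mmrn1, which encodes the granule protein multimerin, fell by 1.29 (SE 0.27; -2.43 with total counts). Fcer1g, the signalling chain of the collagen receptor and also of mast cell and myeloid Fc receptors, rose by 1.22 (SE 0.05; 0.09 with total counts, not a call). F2r, a thrombin receptor that mouse platelets lack, rose by 0.85 (SE 0.23), and stood at -0.28 with total counts, not a call. Of the F2r-like genes on the list, F2rl2 fell by 0.79 (SE 0.23; -1.92 with total counts). F2rl3 stood at -0.16 (SE 0.17) with TMM, not a call, and at -1.30 with total counts, a call. Both were named after their values were seen. P-selectin, Selp, had 8.23 ± 0.491 CPM in WT and 7.88 ± 0.765 CPM in KO, no call with TMM (-1.19 with total counts, a call), and was named after its values were seen.

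Granule genes gave 3 higher and 2 lower of 18 with TMM (median -0.04; 17.2% and 14.4% of all genes), and 1 higher and 16 lower with total counts. Srgn rose by 2.42 (SE 0.07; 1.29 with total counts) and Thbs1, thrombospondin, by 1.95 (SE 0.53; 0.81 with total counts, not a call). Hps1, needed for dense granules, rose by 0.42 (SE 0.11) but was called lower with total counts (-0.72), and Angpt1 fell by 0.55 (SE 0.15; -1.69 with total counts). Of 16 cytoskeletal genes 7 rose and 1 fell with TMM (median 0.06; 17.2% and 14.4% of all genes), and 3 were called higher and 11 lower with total counts. With TMM, Tuba4a stood at 2.63 (SE 0.13), Pfn1 at 1.56 (SE 0.12), Rac2 at 1.34 (SE 0.07) and the myosin light chain gene Myl6 at 1.04 (SE 0.09). With total counts these 4 stood at 1.50, 0.43, 0.20 and -0.09, the last not a call. Of 24 activation signalling genes 6 rose and 6 fell with TMM (median 0.01; 17.2% and 14.4% of all genes), and all 24 were called lower with total counts. Zyx (log2 0.58, SE 0.09), Plek (0.61, SE 0.12) and Fermt3 (0.46, SE 0.08), whose product kindlin-3 activates integrins, rose with TMM but were called lower with total counts (-0.55, -0.53 and -0.68). Rasgrp2, the exchange factor that switches on Rap1 in platelets, fell by 0.46 (SE 0.09; -1.59 with total counts).

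**Figure D4:**
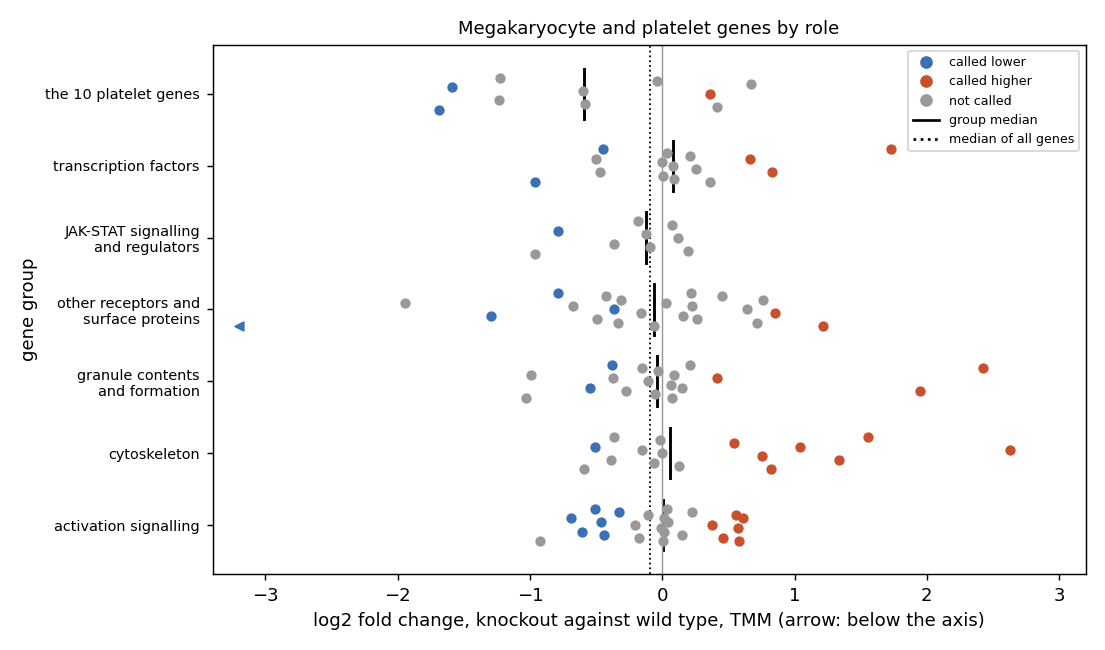
Log2 fold change with TMM, KO against WT, of each tested gene of the 10 platelet genes and of 6 wider groups by role. Blue and orange points were called lower and higher in edgeR, grey points were not called, thick bars mark group medians and the dotted line the median of all genes at -0.09. The median of the 10 lies at -0.59 and those of the 6 wider groups between -0.12 and 0.08.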

How the data were processed

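RNA was sequenced from 3 WT and 3 KO libraries, grouped by their descriptions. The authors deposited 1 table of 18491 genes with raw read counts. The authors also deposited length-scaled values under headers that name no unit. How the authors made these deposited values is not stated in any label or header, and they were taken to be FPKM (reads scaled by gene length and library size), since counts divided by exon length and total gave the same multiple to within 1% in at least 98.5% of single-transcript genes with 500 reads or more. The deposited columns of the authors' DESeq2 comparison give a mean signal, a log2 fold change, its standard error and test score, and p-values. Tools named in the submitters' processing notes are featureCounts 2.0.1, HISAT2 2.2.1, DESeq2 1.32.0 and fastp 0.22.0, with build mm10; options and strand setting are not given in the sources used here.

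Counts were tested with edgeR 4.0.16 (R 4.3.3): filterByExpr (15474 genes), TMM, quasi-likelihood test on group, two-sided, Benjamini-Hochberg over all genes tested. A standard error is the log2 fold change over the root of F. Alternatives were total counts, RLE, upper-quartile scaling, DESeq2 1.42.0, 2 other filters, the replicate number as a block and leaving out each library; summing Gp1bb with Septin5 was added after seeing the data. The procedure was tested on simulated data, and its pass criteria were relaxed after a first run missed them. It called few changed genes below 1 CPM, and false calls lay above the nominal rate. How the procedure handles a difference in library make-up as large as the one seen here was not tested. Of the IDs, 18457 matched GENCODE vM21 (GRCm38). The 10 genes and the lists were chosen with earlier results of these data known. Named are all 10, up to 4 genes of lowest p per role of the wider list, up to 3 per marker list (not all described) and the 4 genes most like Itga2b and Gp9 over the libraries; other genes named were chosen after their values were seen. Genes near 1 CPM rest on few reads. One listed item is not reported here, and the list counts were made without it.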

Additional observations from a re-analysis of the deposited data

How the results depend on the processing

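Scaling moved most values. With total counts the platelet genes called lower numbered 8 and those called higher 0, their median was -1.72, and Pf4 reversed to -0.77. The wider set then had 89 lower and 4 higher calls, and all genes 10937 lower and 655 higher. With the stricter filter, which drops Gp1ba and Ppbp, the median of the remaining platelet genes was -0.30. Under the 12 alternatives other than total counts, Gp5 stayed between -1.94 and -1.28 and Pf4 between 0.33 and 0.41, and both were called in each. Gp1bb, with 1 alternative more (the sum with Septin5), stayed between -1.81 and -0.99 and was called in all 13. The sum cannot bring back reads that counting discarded, so it does not settle what the overlap does to Gp1bb. Vwf was called in 1 of 12, and Gp9, Itga2b, Itgb3, Treml1, Gp1ba and Ppbp in 0 (11 alternatives for the last 2). Leaving out single libraries gave 2 to 3 platelet genes lower, a median from -0.84 to -0.35, 10 to 15 lower calls in the wider set and 1356 to 2142 among all genes. Same-numbered libraries had correlations of deviations from their group mean of 0.04, -0.01 and 0.05, and differently numbered ones from -0.075 to 0.029. With so few libraries these values cannot show whether replicate numbers pair the libraries. The replicate block left 2 platelet genes lower and 1 higher, at a median of -0.69, with 1906 lower and 2467 higher calls over all genes. Few reads limit Gp1ba, Ppbp and Treml1, and a difference that did not pass there does not show equal levels.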

Other observations

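Several genes of mature platelets had too few reads to be tested. Gp6, the collagen receptor gene, had 0, 7 and 15 reads in WT and 11, 0 and 0 in KO, in replicate order. Mpig6b, which encodes an inhibitory platelet receptor, had 18, 3 and 7 reads in WT and 0 in each KO library. Myl9, a myosin light chain gene of megakaryocytes, had 62, 4 and 0 reads against 4, 0 and 0. Sparc, which encodes a matrix protein found in alpha granules and made by stromal cells, had 174, 0 and 19 reads against 3, 0 and 0. WT replicate 1 held the most reads of Mpig6b, Myl9 and Sparc, and also the most of Ppbp (109 reads) among all 6 libraries. Other genes went the other way. WT replicate 1 held 0 reads of Gp6, and with TMM it was the lowest of all 6 libraries for Gp9 (1.70 CPM) and Itgb3 (1.02 CPM).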
